A study of Arabidopsis thaliana with 24 samples.

Results

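Transcripts in whole Arabidopsis thaliana seedlings were compared between wild-type Col-0 and ALC::TOC1 plants to find those whose response to ethanol differed by genotype in the same direction in constant light and in light-dark cycles. For each probe set, the wild-type ethanol difference (ethanol minus mock) was subtracted from that of ALC::TOC1, on group means of log2 values, and the result is called the interaction here. A probe set was a member when its interaction was at least 0.8 log2 units, or 1.74-fold, in both light regimes. Of 22746 probe sets, 62 met this threshold (0.273%), 6 of them were set aside by name, and 56 remained. These 56 were selected on the measured values themselves, so the interaction and the ethanol and genotype differences it is made of are given below as descriptions, with no test. The array annotation gave 1 gene name for 26 members, several for 1 and none for 29. All 26 named members matched a gene of the RefSeq annotation, 4 by a gene symbol and 22 by a locus number alone.

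ALC::TOC1 carries an ethanol switch. In this system, taken from a fungus, the activator AlcR binds the alcA promoter and turns on the gene behind it once ethanol is present. The gene here is TOC1, a pseudo-response regulator of the plant clock that binds DNA and represses clock genes expressed around dawn. TOC1 protein is normally degraded by the proteasome, and MG132 blocks the proteasome.

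The 24 Affymetrix ATH1 arrays form 8 groups of 3 that cross genotype (wild type, ALC::TOC1), regime and treatment. All seedlings were 13 days old, had spent 12 days in 12:12 light-dark cycles and were then kept 1 more day in those cycles (LD) or in constant light (LL). They were submerged for 3 h in Murashige-Skoog medium with 2.5% ethanol or without it (mock) and collected at ZT1. In LD this was 1 h after lights-on, so the treatment there began before lights-on. In LL the light stayed on, so ZT1 marks only the corresponding time of day. MG132, stated as 20 mM, was present in all 8 groups, mock included. Plants with the switch but no TOC1 behind it were not among the groups, so TOC1 itself and the rest of the construct or line cannot be told apart. The labels do not say which promoter drives the switch, how many transgenic lines were used or whether replicates were grown separately, so p-values measure the spread between these samples, which may be technical. In whole seedlings, fewer cells of a type and less RNA per cell cannot be told apart.

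Array medians ran from 5.14 to 5.41 log2 units, and arrays of a group correlated at 0.9885 to 0.9968. The leaf marker RCA, the activase of the carbon-fixing enzyme Rubisco, lay between 12.71 and 13.30 on the 24 arrays. The root hair expansins EXPA7 and EXPA18 lay between 3.78 and 5.23 and between 3.35 and 4.55. These 3 were the ones with a named probe set among 12 leaf and 12 root markers, none was a member, and none had an adjusted p under 0.05 in the interaction of either regime. The 3' minus 5' signal of GAPDH control probe sets, which grows as RNA degrades, had an interaction of 0.46 log2 units in LL and -0.10 in LD. The corresponding values were 0.49 and -0.26 for actin and 0.10 and -0.09 for ubiquitin, so their sign in LL was that of the members and their sign in LD was not. The part of RNA quality in the members' values was not tested.

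Most of the 56 members were higher in induced ALC::TOC1, but in a minority a lower level with ethanol in wild type made up more of the interaction in at least 1 regime. In 41 members, 20 of them named, the ALC::TOC1 ethanol difference made up at least 50% of the interaction in both regimes. In 8 members the wild-type term was the larger in both regimes, in 6 it was the larger only in LD, and in 1 only in LL. The ethanol difference in ALC::TOC1 had a median of 1.14 log2 units over the members in LL and 0.95 in LD, where the medians over all 22746 probe sets were -0.01 and 0.00. In wild type the members' medians were -0.09 in LL and -0.26 in LD, and those of all probe sets 0.02 and 0.00.

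The count of members at least 0.8 log2 units higher with ethanol in ALC::TOC1 was 40 in LL (2.12% of all probe sets), 33 in LD (3.03%) and 31 in both (1.27%). It was above 0 for 52 members in LL (47.5% of all probe sets) and for 53 in LD (49%). In wild type, 8 members were at least 0.8 units lower with ethanol in LL (2% of all probe sets), 8 in LD (3.37%) and 6 in both (0.945%). In 34 members, 18 of them named, the wild-type ethanol difference stayed within 0.5 units of 0 in both regimes, as it did in 77.2% of all probe sets. In 28 members, 15 of them named, all 6 induced ALC::TOC1 arrays lay above all 18 others, as they did in 0.444% of all probe sets. Because these contrasts chose the members, the shares of all probe sets stand beside the counts as background only.

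**Figure D1:**
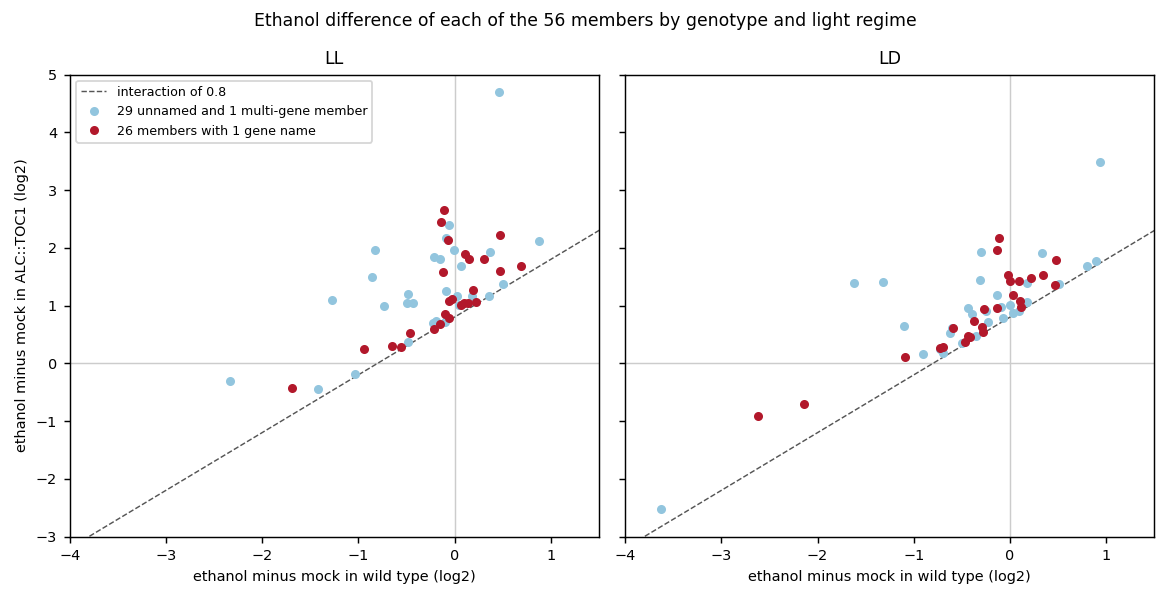
Ethanol minus mock difference in ALC::TOC1 (vertical axis, log2 units) against the same difference in wild type (horizontal axis, log2 units) for the 56 members, in LL (left) and LD (right); red points are the 26 members with 1 gene name, blue points the others, and the dashed line marks an interaction of 0.8. Most points stand above 0 on the vertical axis near 0 on the horizontal axis (52 members in LL and 53 in LD were above 0 in ALC::TOC1), while a tail extends to the left, to wild-type differences of -2.34 in LL and -3.63 in LD.

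GPDHp, the plastid glycerol-3-phosphate dehydrogenase, had the largest smaller interaction of the 2 regimes among named members. In LL its log2 levels were 6.83, 7.32 and 6.88 in wild-type mock arrays, 7.10, 7.35 and 7.03 with ethanol, 7.35, 7.13 and 7.56 in ALC::TOC1 mock, and 9.24, 9.13 and 9.09 in induced ALC::TOC1. In LD they were 6.06, 6.37 and 6.12 in wild-type mock, 5.70, 6.09 and 6.36 with ethanol, 7.03, 6.69 and 6.88 in ALC::TOC1 mock, and 8.93, 8.74 and 8.81 in induced ALC::TOC1. The 6 induced arrays stood clear of the 18 others, which reached 7.56 at most. Its interaction was 1.66 ± 0.22 log2 units (SE, 3 arrays per group) in LL and 2.09 in LD with the same SE. The enzyme interconverts dihydroxyacetone phosphate and glycerol-3-phosphate, the backbone of glycerolipids.

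AGL30, a MADS-box transcription factor known from pollen, read 5.71, 5.80 and 6.24 in induced ALC::TOC1 in LL and 5.93, 5.69 and 5.46 in LD. The 18 other arrays lay between 3.88 and 4.63, with a median of 4.33. The induced arrays of both regimes were thus high and all others low, with an interaction of 1.70 ± 0.21 (SE) in LL and 1.15 in LD. AGL30 was the only named member of the 15 with separated arrays, besides GPDHp, that the annotation gives a gene symbol.

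Some members sat near the bottom of the scale everywhere except in induced ALC::TOC1. All 4 wild-type group means were under 4 log2 units in 6 members, among them AT1G01390, AT3G63360, AT1G17665, AT3G62430 and AT3G62780. Levels that low were not tested against background, so the size of such a difference may be understated. The lowest value on any array was 2.165.

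AT1G01390 read 5.66, 5.37 and 5.87 in induced ALC::TOC1 in LL and 5.21, 5.43 and 5.09 in LD. Its 18 other arrays ran from 3.38 to 3.86 with a median of 3.48, a narrow band with no overlap. The interaction was 2.19 ± 0.17 in LL and 1.56 in LD.

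AT3G63360 read 5.39, 5.44 and 5.55 in the induced LL arrays and 5.27, 4.59 and 4.64 in the induced LD arrays, against 3.04 to 4.06 (median 3.38) on the others. AT5G09430 read 5.21, 5.62 and 5.41 in LL and 4.92, 4.78 and 5.41 in LD, against 3.45 to 4.31 (median 3.71). Neither pair of ranges overlapped. AT1G17665 read 5.07, 4.46 and 5.16 in LL and 4.54, 4.89 and 5.02 in LD, against 2.89 to 3.90 (median 3.50). Here the low arrays split by regime as well: the 6 wild-type LL arrays lay between 3.54 and 3.90 and the 6 wild-type LD arrays between 2.89 and 3.39.

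**Figure D2:**
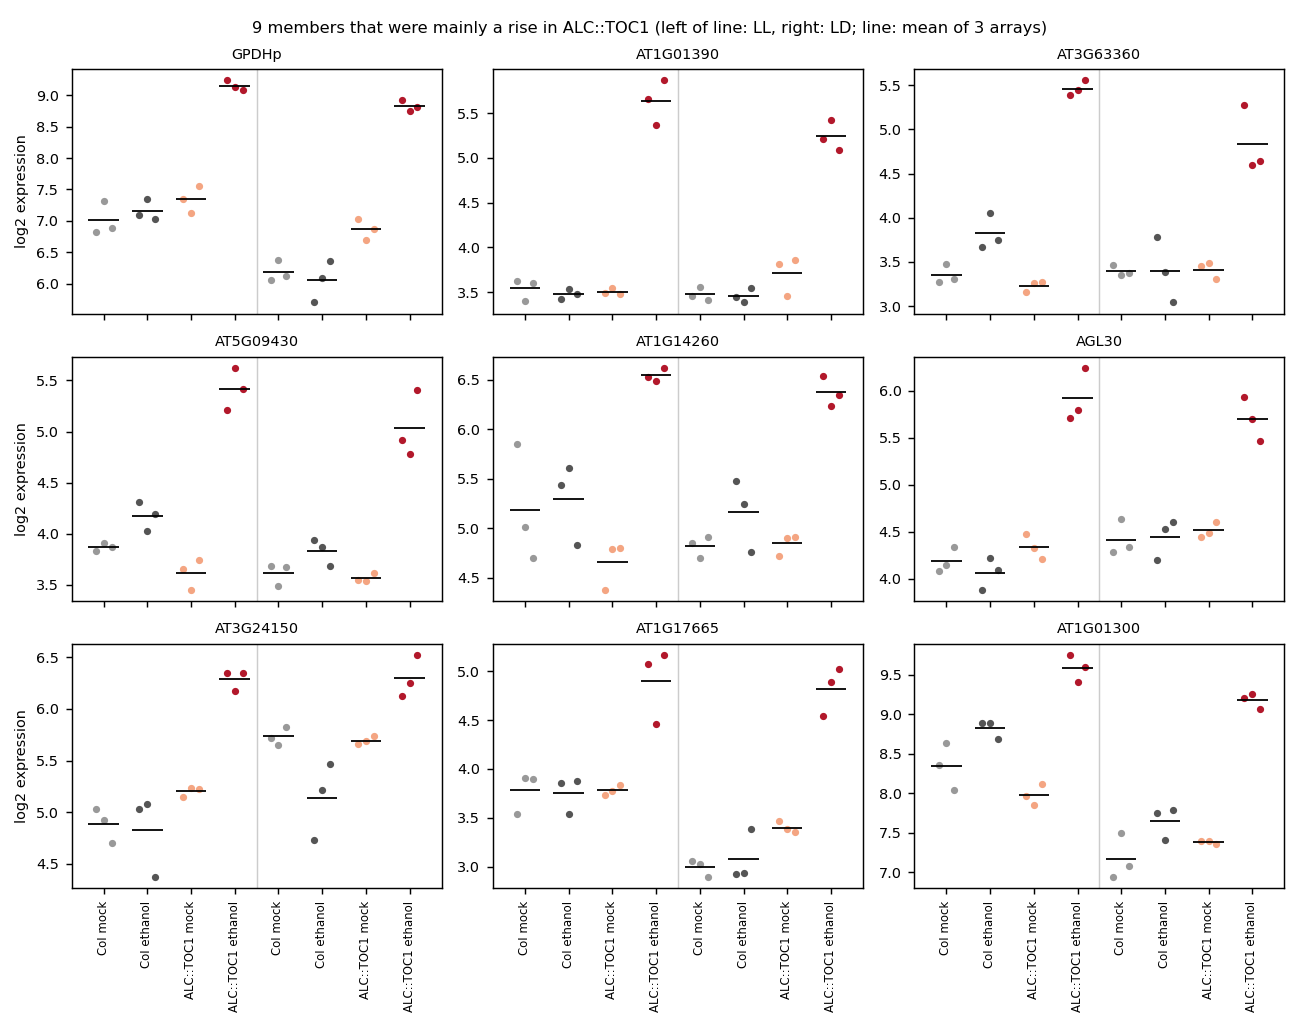
Log2 expression on each array (dots) with the mean of 3 arrays (line) for 9 named members in which the ALC::TOC1 term made up most of the interaction in both regimes, LL left and LD right of the grey line in each panel; grey, wild-type mock; dark grey, wild-type ethanol; light orange, ALC::TOC1 mock; red, ALC::TOC1 ethanol. In all 9 panels the 6 red dots lie above the 18 others.

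At higher levels, AT1G01300 read 9.74, 9.40 and 9.60 in induced ALC::TOC1 in LL and 9.20, 9.26 and 9.07 in LD. Its other arrays ran from 6.94 to 8.89 with a median of 7.82, and wild type itself was higher with ethanol, by 0.47 in LL and 0.48 in LD. The induced arrays stayed above all others nonetheless, with an interaction of 1.13 ± 0.21 in LL and 1.31 in LD. AT1G14260 read 6.53, 6.48 and 6.62 in LL and 6.53, 6.23 and 6.35 in LD, against 4.38 to 5.84 on the others. AT3G24150 read 6.35, 6.17 and 6.35 in LL and 6.13, 6.25 and 6.52 in LD, against 4.37 to 5.82. In LD its interaction of 1.20 joined 2 terms of like size, an ALC::TOC1 difference of 0.61 and a wild-type difference of -0.60.

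AT1G10650 had the narrowest spread among these members. In LL its levels were 7.19, 7.25 and 7.34 in wild-type mock, 7.48, 7.41 and 7.45 with ethanol, 7.15, 7.04 and 7.20 in ALC::TOC1 mock, and 8.30, 8.42 and 8.51 in induced ALC::TOC1. In LD the same groups read 8.09, 7.86 and 7.96, then 7.52, 7.57 and 7.69, then 7.78, 7.75 and 7.67, and last 8.58, 8.50 and 8.30. The induced arrays reached similar levels in both regimes, whereas mock arrays were higher in LD. Its interaction was 1.09 ± 0.12 in LL and 1.104 in LD.

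The interaction was the larger in LL for 30 members and in LD for 26. In 5 members it was at least 1 log2 unit larger in LL, and AT3G03680 and AT3G62780 were the named ones. AT3G03680 read 8.02, 8.04 and 8.43 in induced ALC::TOC1 in LL and 6.92, 6.79 and 6.55 in LD, while the 18 others lay between 5.15 and 5.98 with a median of 5.71. Both induced groups were above all others, and the LL arrays were above the LD arrays. Its interaction was 2.77 ± 0.25 in LL and 1.09 in LD.

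AT3G62780 read 6.48, 6.37 and 6.54 in LL and 4.92, 4.50 and 4.19 in LD, against 3.33 to 4.05 on the others. The interaction was 2.58 ± 0.23 in LL and 0.87 in LD, and without the first induced LD array the LD value dropped to 0.67, under the threshold. AT1G29660 was the only member with an LD interaction at least 1 unit larger, 2.28 against 0.94 ± 0.57 in LL. It read 8.50, 7.53 and 7.42 in induced LD arrays and 6.15, 5.10 and 5.69 in ALC::TOC1 LD mock arrays, where wild-type mock arrays read 6.65, 8.15 and 7.47. Its induced LD arrays overlapped those of wild type, and the low arrays were ALC::TOC1 mock in LD, where the mock difference between genotypes was -1.78.

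**Figure D3:**
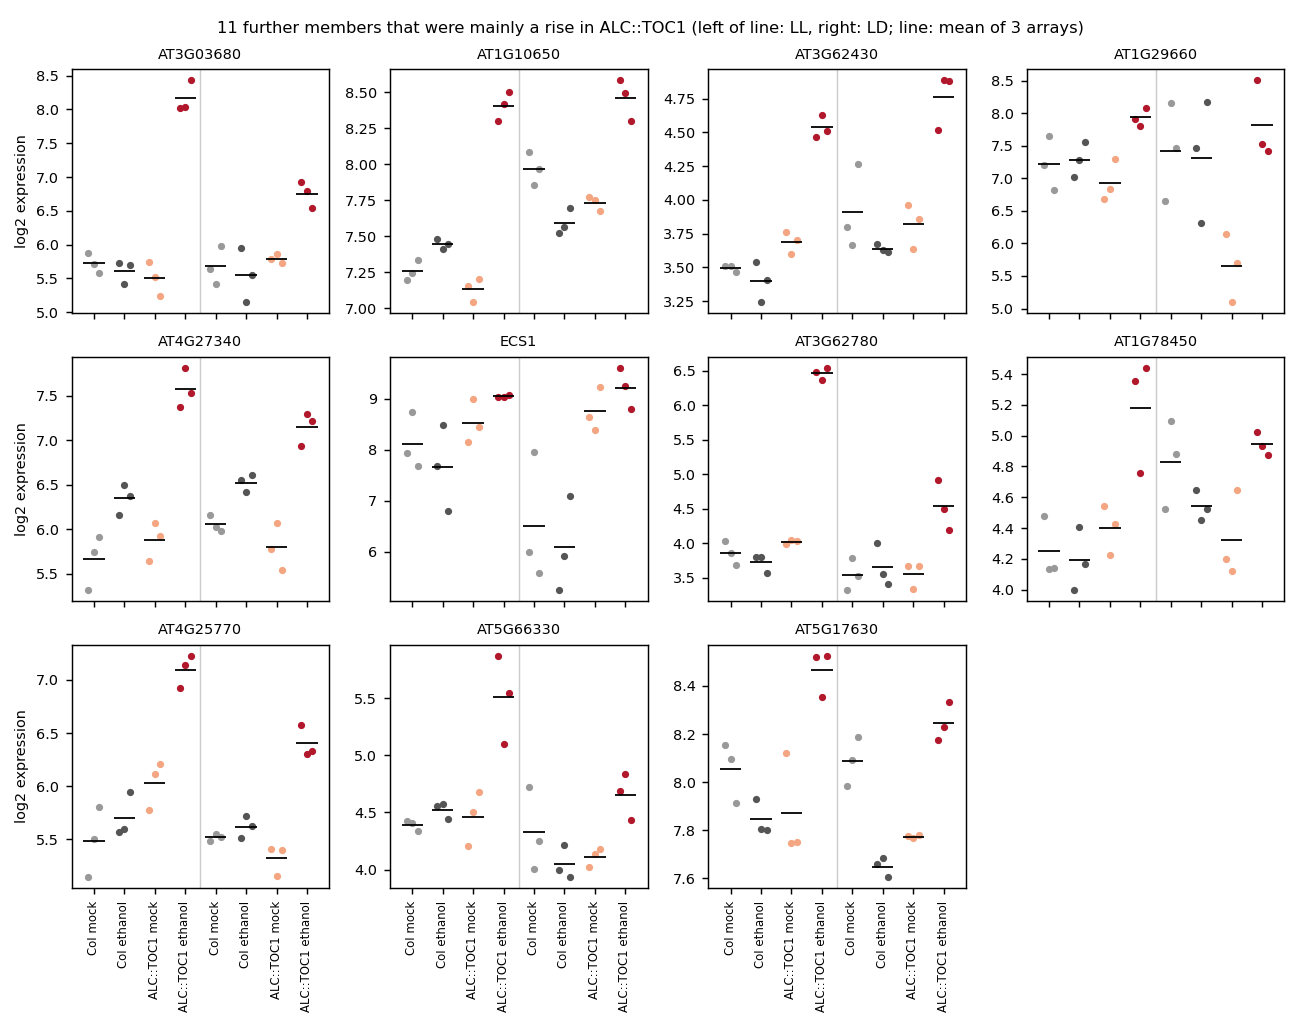
Log2 expression on each array (dots) with the mean of 3 arrays (line) for the 11 further named members in which the ALC::TOC1 term made up most of the interaction in both regimes; axes, colours and layout are LL left, LD right, grey and dark grey for wild-type mock and ethanol, light orange and red for ALC::TOC1 mock and ethanol. AT3G03680 and AT3G62780 show red dots far higher in LL than in LD, and ECS1 shows wild-type dots spread from 5.26 to 8.75.

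ECS1, a cell wall protein, was a member of another kind. Its wild-type arrays scattered widely, reading 5.99, 7.96 and 5.58 in LD mock and 5.26, 5.93 and 7.09 in LD ethanol. ALC::TOC1 read 8.64, 8.39 and 9.23 in LD mock and 9.60, 9.25 and 8.81 in LD ethanol. ALC::TOC1 was thus already 2.25 above wild type in LD without ethanol, and there the induced arrays overlapped the ALC::TOC1 mock arrays. In LL the induced arrays read 9.03, 9.04 and 9.07, just above ALC::TOC1 mock at 8.14, 8.99 and 8.46. No wild-type LL array was above 8.75. The interaction was 0.98 ± 0.72 in LL and 0.88 in LD, and single wild-type arrays moved it widely. The LL value was 0.55 without the third LL ethanol array. The LD value was 0.15 without the second LD mock array, 0.46 without the first LD ethanol array, 1.34 without the third LD mock array and 1.38 without the third LD ethanol array.

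AT4G27340 and AT4G25770 completed the named members with all 6 induced arrays above all others, at 6.93 to 7.81 against 5.32 to 6.61, and 6.31 to 7.23 against 5.14 to 6.21. AT3G62430 did so at a low level, 4.47 to 4.89 against 3.24 to 4.27. AT1G78450, AT5G66330 and AT5G17630 had induced arrays that overlapped the others in at least 1 regime. Their interactions were 0.85 and 0.91, 0.91 and 0.82, and 0.80 and 0.91, in LL and LD.

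Among members without a gene name, probe set 258158_at had the largest LL interaction of all 56, 4.24 ± 0.32, with 2.54 in LD. It read 9.06, 8.91 and 8.86 in induced ALC::TOC1 in LL and 9.51, 9.41 and 9.41 in LD. The other LL arrays lay between 3.74 and 4.79 and the other LD arrays between 5.70 and 7.35, so its basal level differed by regime while the induced level was high in both. Probe set 252607_at had the largest LD interaction, 3.01 ± 0.57, with 2.36 in LL. In LD it read 4.85, 6.06 and 5.22 in wild-type mock, 3.72, 3.62 and 3.92 with ethanol, 5.36, 5.15 and 6.13 in ALC::TOC1 mock, and 7.57, 6.79 and 6.43 in induced ALC::TOC1. Ethanol arrays were thus low in wild type and high in ALC::TOC1, with differences of -1.62 and 1.39 from mock. Over the 29 unnamed members the interaction had a median of 1.47 in LL and 1.103 in LD.

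In the 15 members where the wild-type term was the larger in at least 1 regime, the 2 genotypes combined in different ways. Their wild-type ethanol differences lay between -2.34 and 0.09 in LL and between -3.63 and -0.39 in LD. The ALC::TOC1 differences lay between -0.45 and 1.97 in LL and between -2.53 and 1.39 in LD. Some of them were thus higher with ethanol in ALC::TOC1, as 252607_at was in both regimes, and others, such as AT3G48640, were lower. Named members among them were AT3G48640, AT3G04650, AT1G03560, AT3G29970, AT2G41250 and MRL7-L.

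AT3G48640 was lower in ALC::TOC1 than in wild type with or without ethanol. In LL it read 7.17, 6.33 and 6.03 in wild-type mock, 5.34, 5.18 and 3.93 with ethanol, 3.997, 3.62 and 3.74 in ALC::TOC1 mock, and 3.29, 3.37 and 3.43 in induced ALC::TOC1. In LD it read 7.30, 5.29 and 6.44, then 4.80, 4.14 and 3.66, then 3.79, 3.93 and 3.81, and last 3.34, 3.07 and 3.01. The wild-type mock arrays were the high ones and the induced arrays the low ones in both regimes. The mock difference, ALC::TOC1 minus wild type, was -2.72 log2 units in LL and -2.50 in LD. Its interaction was 1.27 ± 0.56 in LL, 0.82 without the third wild-type LL ethanol array, and 1.44 in LD. The ALC::TOC1 mock means were already 3.79 in LL and 3.84 in LD. Whether levels that low limited a further fall, and so raised the interaction, was not tested.

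AT3G29970 behaved likewise in LD. There it read 7.21, 5.98 and 5.73 in wild-type mock, 3.77, 3.82 and 3.48 with ethanol, 4.30, 4.29 and 3.94 in ALC::TOC1 mock, and 3.36, 3.24 and 3.17 in induced ALC::TOC1. In LL all 12 arrays lay between 3.04 and 4.25, and the part of such low levels in its interaction was not tested. Only wild-type LD mock arrays were high, and the interaction was 0.83 ± 0.34 in LL and 1.70 in LD.

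AT3G04650 read 5.23, 5.30 and 5.63 in wild-type LL mock, 4.75, 4.75 and 4.71 with ethanol, 4.76, 4.61 and 4.88 in ALC::TOC1 mock, and 4.99, 5.02 and 5.16 in induced ALC::TOC1. Wild type with ethanol overlapped ALC::TOC1 mock, and the mock difference between genotypes was -0.64 in LL and -1.18 in LD. AT1G03560 read 4.84, 4.14 and 5.15 with ethanol in wild type in LL, where the other 9 arrays lay between 5.06 and 5.83. The ranges overlapped through the array at 5.15, and the interaction was 1.18 ± 0.29 in LL and 0.84 in LD.

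AT2G41250 and MRL7-L had the larger term in ALC::TOC1 in LL and in wild type in LD. AT2G41250 in LL read 7.73, 7.92 and 8.14 in wild-type mock, 8.08, 7.81 and 8.18 with ethanol, 8.43, 8.49 and 8.65 in ALC::TOC1 mock, and 9.49, 9.55 and 9.64 in induced ALC::TOC1. In LD the same groups read 10.01, 9.90 and 10.03, then 8.42, 9.04 and 9.20, then 9.68, 9.65 and 9.90, and last 9.87, 9.87 and 9.81. The induced arrays were the highest in LL, while in LD wild type with ethanol was the lowest and the 3 other groups lay close together. The interaction was 0.94 ± 0.21 in LL and 1.20 in LD. MRL7-L, a relative of the plastid protein MRL7, had ALC::TOC1 differences of 0.68 in LL and 0.29 in LD and wild-type differences of -0.15 and -0.70. Its wild-type LD ethanol arrays read 4.44, 4.40 and 5.53, so a single array overlapped the others.

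**Figure D4:**
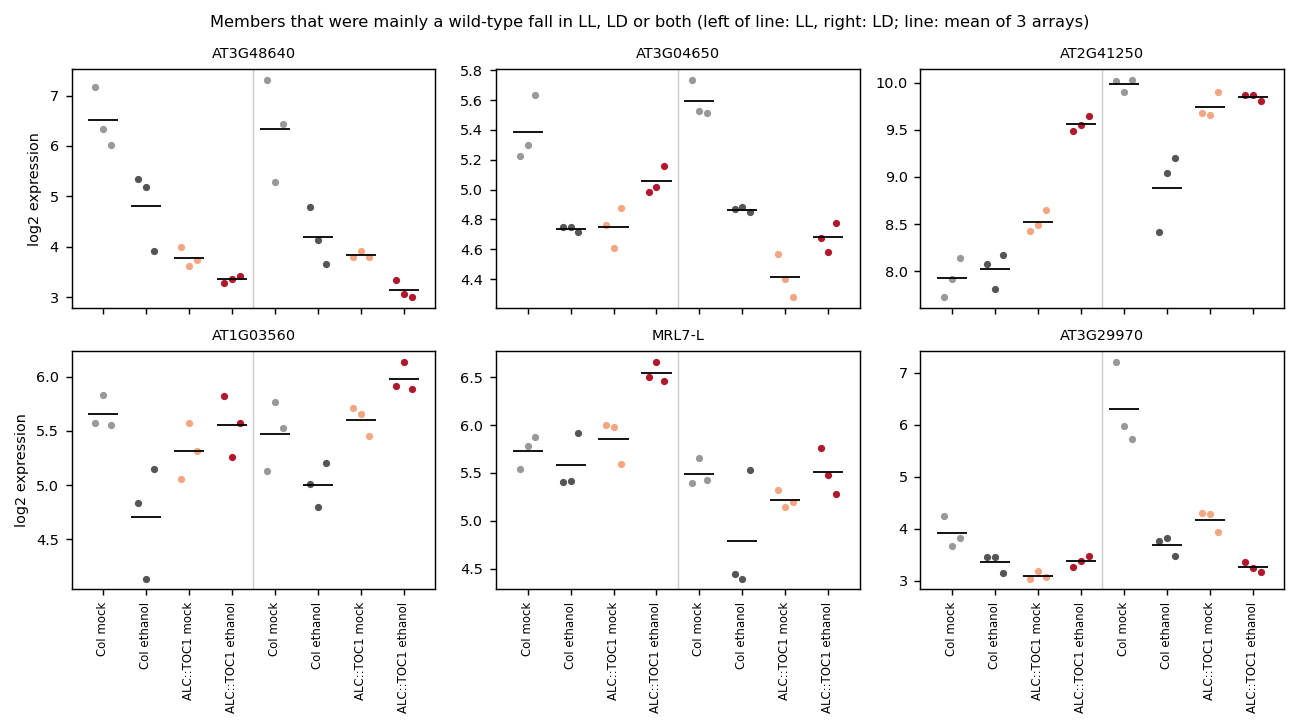
Log2 expression on each array (dots) with the mean of 3 arrays (line) for the 6 named members in which the wild-type term was the larger in at least 1 regime, LL left and LD right of the grey line; grey and dark grey, wild-type mock and ethanol; light orange and red, ALC::TOC1 mock and ethanol. AT3G48640 and AT3G29970 show red dots at or near the lowest levels, 3.01 to 3.48, and AT2G41250 shows dark grey dots lowest in LD, at 8.42 to 9.20.

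The mock difference, ALC::TOC1 minus wild type, had a median of -0.01 in LL and -0.08 in LD and lay within 0.5 log2 units of 0 in both regimes for 37 members (88.8% of all probe sets). It was -0.8 or lower for 3 members in LL (1.67% of all probe sets) and for 6 in LD (0.892%), named AT3G48640, AT3G04650, AT1G29660 and AT3G29970. It was 0.8 or higher for no member in LL (0.611%) and for ECS1 alone in LD (1.45%). The mean level over 24 arrays had a median of 5.66 over the members and 5.35 over all probe sets.

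At the threshold itself, AT5G17630 lay just inside with interactions of 0.80 in LL and 0.91 in LD. AT3G09580 lay just outside with 0.85 and 0.796, AT1G78460 with 0.79 and 0.79, and AT2G33850 with 0.78 and 1.34. AT1G78460 is the next gene to the member AT1G78450 in RefSeq order. AT4G25770 is next to AT4G25780, which was set aside by name and had interactions of 3.69 and 4.04. It was the 1 of 17 named members whose next gene had a named probe set and whose neighbour met the threshold, as did 0.294% of the 8834 named genes with such a next gene.

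Levels in LL and LD were compared next, since the mean difference between the regimes did not enter the choice of members. The members did not share a direction. With limma's test over all 24 arrays, 25 of 56 members were higher in LL (26.6% of all probe sets) and 11 were lower (24.2%). This mean holds induced arrays too, so a member whose induced level was higher in LL counts toward the first number. In wild-type arrays alone, a comparison added after seeing the data, 14 were higher in LL (21.9% of all probe sets) and 15 lower (22.8%), which is near the background in both directions. Medians of the wild-type difference were 0.03 over the members and -0.02 over all probe sets.

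Of the named members, 12 were higher in LL and 5 lower over all arrays, where 26.6% and 24.2% of all probe sets were. In wild-type arrays alone, 6 named members were higher and 8 lower, beside 21.9% and 22.8% of all probe sets. AT1G01300 was higher by 0.84 ± 0.07 log2 units (SE, 12 arrays per regime; limma adjusted p = 6.16e-09), with 1.17 ± 0.10 in wild type alone (limma adjusted p = 1.32e-08). GPDHp was higher by 0.68 ± 0.08 (limma adjusted p = 2.16e-07), with 0.97 ± 0.11 in wild type alone (limma adjusted p = 3.54e-07). For both, the difference held without the induced arrays. AT3G62780 was higher by 0.69 ± 0.08 (limma adjusted p = 4e-07), but by 0.19 ± 0.12 in wild type alone, which did not pass the test (limma adjusted p = 0.195). ECS1 was higher by 0.69 ± 0.26 (limma adjusted p = 0.0277), and leaving out any 1 of 8 single arrays ended that call, with limma adjusted p from 0.0501 to 0.0598.

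AT2G41250 was lower in LL by the largest amount among named members, -1.11 ± 0.07 (limma adjusted p = 1.06e-10), and by -1.46 ± 0.10 in wild type (limma adjusted p = 8.12e-10). AT3G29970 followed with -0.92 ± 0.12 (limma adjusted p = 1.41e-06), AT3G24150 with -0.41 ± 0.08 (limma adjusted p = 0.000258) and AT1G10650 with -0.38 ± 0.04 (limma adjusted p = 2.91e-07). In each of these 4 the wild-type arrays alone passed the test in the same direction. The unnamed 258158_at was lower still, by -1.71 ± 0.11 (limma adjusted p = 8.6e-11).

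**Figure D5:**
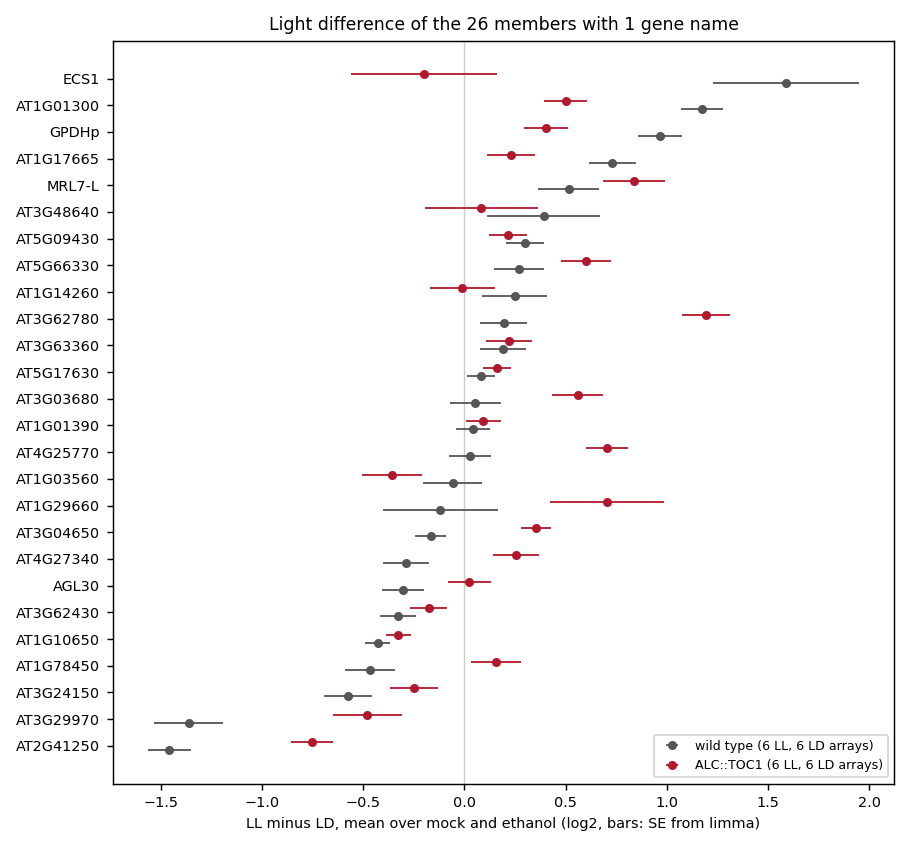
LL minus LD difference (log2 units, with SE bars) of the 26 named members in wild type (grey, 6 arrays per regime) and ALC::TOC1 (red, 6 arrays per regime), each averaged over mock and ethanol. Points fall on both sides of 0 in both genotypes, from -1.46 for AT2G41250 to 1.59 for ECS1 in wild type.

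Whether the ethanol difference averaged over genotypes differed between LL and LD was tested in the same fit. The signed value, LL minus LD, was above 0 for 10 members (2.44% of all probe sets) and below 0 for 1 (2.6%). A value above 0 can also mean a deeper fall with ethanol in LD, as in AT3G29970. The 6 named members were all in the first group, from 0.56 ± 0.09 for AT1G10650 (limma adjusted p = 0.00108) to 1.63 ± 0.24 for AT3G29970 (limma adjusted p = 0.000751). In AT3G29970 and AT2G41250 the ethanol difference was lower in LD than in LL in both genotypes, and below 0 in LD in wild type. In AT3G03680, AT3G63360 and AT3G62780 the ALC::TOC1 difference was larger in LL. The genotype difference, ALC::TOC1 minus wild type averaged over treatments, was tested in the same way. LL minus LD, it was above 0 for 18 members (8.77% of all probe sets) and below 0 for 4 (9.38%). A value above 0 can also mean that ALC::TOC1 lay further below wild type in LD, as in AT3G29970. AT3G62780 had 0.9995 ± 0.17 (limma adjusted p = 0.000429) and AT3G29970 had 0.88 ± 0.24 (limma adjusted p = 0.0148). The 4 with the opposite sign were ECS1 at -1.79 ± 0.51 (limma adjusted p = 0.0191), AT1G01300 at -0.67 ± 0.15 (limma adjusted p = 0.00348), GPDHp at -0.56 ± 0.16 (limma adjusted p = 0.0158) and AT1G17665 at -0.50 ± 0.17 (limma adjusted p = 0.0395). The call for AT1G17665 was lost when any 1 of 15 single arrays was left out, and that for the ethanol difference of AT3G62780 likewise. These averages also carry the induced rise where its size differs between regimes.

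None of the 26 members with 1 gene name belonged to any of the 6 gene lists examined beside them, and the 29 unnamed members could not be matched to a list. The lists cover the clock, ethanol and acetate metabolism, small heat shock proteins, hypoxia, and leaf and root markers. For these lists the same interaction was tested with limma, where 1.88% of all probe sets were called in LL and 0.413% in LD. Without a probe set under their names, TOC1, CCA1, LHY, the other PRR genes, ELF4 and LUX are not analysed here. Of 31 clock entries 6 had a named probe set, AT5G52660, COR27, AT4G33980, TIC, XCT and GI, and limma called 0 of them in either regime. At an unadjusted p under 0.05, 1 was below 0 in LL and 4 in LD. The medians were -0.26 and -0.61, and those of all probe sets -0.03 and -0.002. The share of all probe sets at that unadjusted level is not given here, so nothing is read from such counts for any list. GI, a clock protein that peaks in the evening and acts in flowering time control, had -0.44 ± 0.27 in LL (limma adjusted p = 0.487) and -0.90 ± 0.27 in LD (limma adjusted p = 0.163). AT4G33980 had -1.12 ± 0.26 in LD (limma adjusted p = 0.0582), a call that 4 of the 24 single-array omissions made.

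Of 11 ethanol and acetate entries 4 had a named probe set and limma called 0, with 2 at an unadjusted p under 0.05 in each regime. ICL, isocitrate lyase of the glyoxylate cycle, had 1.56 ± 0.66 in LL (limma adjusted p = 0.268) and -2.41 ± 0.66 in LD (limma adjusted p = 0.114). Of 14 small heat shock entries 7 had a named probe set. AT1G53540 was the only one called, at -2.32 ± 0.59 in LL (limma adjusted p = 0.0439), and limma called 0 in LD with 2 at an unadjusted p under 0.05. Of 12 hypoxia entries 2 had a named probe set and limma called 0, with 1 at an unadjusted p under 0.05 in LL and 0 in LD.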

How the data were processed

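Total RNA was labelled with biotin and hybridised to ATH1 arrays. The deposited values are log2 expression of each probe set. Per the submitters' processing notes they come from RMA in the affy package, with versions not given in the sources used here. RMA subtracts background, normalises by quantiles and summarises probes, so each value is relative to the other arrays. The number of arrays limits the precision.

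From 22810 probe sets, 64 controls were left out, with no filter on dim ones. Of the remaining 22746, 13513 had 1 gene name, 503 several and 8730 none, and 13436 matched RefSeq (TAIR10.1), used for names and gene order only. All 24 arrays were fitted with limma 3.58.1 in R 4.3.3 (group means, eBayes, two-sided, Benjamini-Hochberg over all probe sets, called under an adjusted p of 0.05), with 16 residual and 4.87 prior degrees of freedom. On simulated data the LL minus LD test recovered 97% of 100 differences of 0.5 log2 units and 100% of 100 differences of 1 log2 unit among 22746 probe sets. The simulation drew independent noise for each array and changed far fewer probe sets than were called in the real data. Recovery in the real data may therefore differ. Summaries used Python 3.11.15.

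The members, gene lists and tests were chosen with earlier results of these data known. Named were the 12 named members with the largest smaller interaction, those nearest the threshold, those with the largest light differences, and GI. The other named members are given to account for the set. Planned promoter motifs were not analysed here. Alternatives were quantile normalisation again, median centring, a filter at the 30th percentile of mean level, trended robust eBayes, weighted arrays, a block for replicate number and each array left out.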

Additional observations from a re-analysis of the deposited data

Results flagged for a closer look

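Among named members, 6 had an ethanol difference, averaged over both genotypes, that differed between LL and LD by limma's test of that difference. Of all probe sets, 2.44% were called above 0 and 2.6% below 0 in that test. The average holds the ALC::TOC1 ethanol difference, which entered the choice of members, so it also carries the induced rise where its size differs between regimes. On the log2 scale, LL minus LD, the values were 0.56 for AT1G10650, 0.61 for AT3G62780, 0.64 for AT3G63360, 0.86 for AT3G03680, 1.06 for AT2G41250 and 1.63 for AT3G29970. The call for AT3G62780 was lost when any 1 of 15 single arrays was left out (limma adjusted p from 0.0541 to 0.066), and that for AT3G63360 without the second induced LD array (limma adjusted p = 0.0545).

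In 11 named members the genotype difference, ALC::TOC1 minus wild type averaged over treatments, differed between LL and LD by the same kind of test. Of all probe sets, 8.77% were called above 0 and 9.38% below 0 in that test. The averages include the induced arrays, so they also carry the induced rise where its size differs between regimes. LL minus LD, it was 0.52 for AT3G04650, 0.54 for AT4G27340, 0.62 for AT1G78450, 0.68 for AT4G25770, 0.71 for AT2G41250, 0.88 for AT3G29970 and 0.9995 for AT3G62780. It was -0.50 for AT1G17665, -0.56 for GPDHp, -0.67 for AT1G01300 and -1.79 for ECS1. The call for AT1G17665 was lost when any 1 of 15 single arrays was left out (limma adjusted p from 0.0515 to 0.0731).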

How the results depend on the processing

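The counts of members called, 25 and 11 for light, 10 and 1 for light by ethanol and 18 and 4 for light by genotype, moved by less than 1.5 times under requantiling, centring, the dim filter, trended robust eBayes, array weights and the block, apart from light by genotype below 0, which was 7 with array weights. In wild-type arrays alone, chosen after seeing the data, 14 members were higher in LL (21.9% of all probe sets) and 15 lower (22.8%). With 1 array left out the counts ran from 22 to 25 and 11 to 13 for light, 7 to 11 and 1 to 1 for light by ethanol, and 17 to 20 and 3 to 5 for light by genotype. Clock calls went from 0 to 1 in LL (AT5G52660) and from 0 to 1 in LD (AT4G33980) under array weights, and ran from 0 to 1 in both with 1 array left out. The single arrays were the third wild-type LL mock array (both calls), and for LD also the third ALC::TOC1 LL mock, wild-type LD ethanol and induced LD arrays. The cause was not tested. Quantile normalisation again and median centring each ended the light call of AT3G63360 (limma adjusted p = 0.0511 and 0.0689) and the light by genotype call of AT1G17665 (limma adjusted p = 0.054 and 0.0645). Median centring and trended robust eBayes each ended the light call of AT5G17630 (limma adjusted p = 0.114 and 0.053). Single arrays also ended the light calls of AT3G63360 (any of 13) and AT5G17630 (any of 15).

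By the same rule, 56 probe sets qualified after quantile normalisation (52 of the 56 members kept), 55 after median centring (48 kept), 62 with array weights (48 kept) and 49 to 65 with 1 array left out. Of the 56 members, 32 qualified under all 30 alternatives, 15 of them named. Over 84 same-numbered pairs of arrays from different groups, deviations from group means correlated at -0.399 to 0.488 (median -0.00195). Over 168 different-numbered pairs they correlated at -0.479 to 0.483 (median -0.0112), so no pairing by replicate number was seen. Some arrays of different groups thus shared deviations whatever their number, and the source of these was not tested. With the replicate number as a block, 25 members were higher and 11 lower in LL, light by ethanol stayed at 10 and 1, and light by genotype was 19 and 5.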
